A study of Arabidopsis thaliana with 8 samples.

Results

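Shoots of 2 sets of Arabidopsis thaliana seedlings were compared on 4 of the 8 arrays of a study of the first minutes of the nitrate response: the 2 shoot arrays whose titles carry Rep2 and the 2 whose titles carry Rep1. All seedlings were wild-type Col-0, 10 days old, grown from about 50 seeds per beaker in shaken liquid medium under constant light, with the shoots above the liquid in the second part of the culture. Within each number, 1 shoot sample had received 250 µM KCl, the control salt, and 1 had received 250 µM KNO3, each for 20 min; the root samples of the same design fill the other 4 arrays. Total RNA was labelled with biotin and hybridised to the Affymetrix ATH1 array, which reports each transcript as 1 or more probe sets. The members were chosen by organ and by the number in the title, not by any measured value, though with earlier results of these data known. The gene lists below were also chosen with those results known. The share over all probe sets beside a list's count is therefore a description, not a test.

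The labels do not say whether the number marks a culture, a day or a run. They also do not say that the samples came from separate cultures, and if each number were 1 culture the 2 arrays that carry it would not be independent repeats of it. The p-values below therefore measure only the spread between these 4 arrays, and number, culture and any batch cannot be told apart. No cause of a difference between the numbers was tested.

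A seedling that leaves its seed stores behind shuts down the glyoxylate cycle, which turns fatty acids into sugar, and relies on its chloroplasts. Chloroplasts keep a small genome of their own, which encodes core subunits of the photosystems, the ATP synthase, the plastid ribosome and the large subunit of Rubisco, while most photosynthesis proteins come from nuclear genes. Plastid transcripts seldom carry long poly(A) tails, so they are an unusual target for an array that labels RNA from its 3′ end. Shoots also respond within minutes to hours to low oxygen, iron shortage, touch and wounding, each with a known set of transcripts.

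Of 22746 probe sets tested, 1661 (7.3%) passed an adjusted p of 0.05 for Rep2 minus Rep1, with treatment as a term of the fit. In Rep2, 910 (4%) were higher and 751 (3.3%) were lower. At least a 2-fold difference was found for 278 of the higher and 214 of the lower probe sets, and at least a 4-fold difference for 5 and 15. Fold changes and differences are on the scale log2(signal + 16), which understates the change of dim probe sets. The differences between the numbers were wider than those between the treatments: their SD over all probe sets was 0.41 on the log2 scale, against 0.27 for nitrate minus KCl in the same fit, where 41 probe sets (0.18%) were higher and 1 (0.0044%) was lower, 0.185% in all. In the roots the SD of Rep2 minus Rep1 was 0.24, with 4 probe sets (0.0176%) higher and 1 (0.0044%) lower, 0.022% in all. Treating all probe sets as sharing 1 prior spread, rather than a spread that follows the signal, left limma with 0 calls; unadjusted, 4863 probe sets had a p under 0.05, against 5524 in the fit used. An exact permutation of 2 arrays against 2 cannot give a two-sided p below 0.333, so every call rests on the spread borrowed across probe sets by limma. A fit without 1 shoot array leaves as many shoot arrays as shoot terms. Its difference is that of the intact pair alone, and what spread it measures comes from the root arrays. Leaving out either KCl array thus gives the nitrate pair, and leaving out either nitrate array the KCl pair. Such fits do not test the shoot spread. Leaving out 1 shoot array, in a fit with the root arrays, gave 215 calls without the KCl array and 1177 without the nitrate array of Rep1, and 184 and 995 without those of Rep2. Of the 44 named probe sets called here, 16 kept their call in all 4 of those fits, among them ICL, AT4G39675, AT3G29970, AT1G47400, AT1G19530, psbA, psbH and rpl22. No fit without 1 array kept OSM34, STZ, atpF, DFR, UF3GT, CML38, NRT2.5, BCAT4, AUR1 or ATG8C, and 14 more, such as rbcL, AT4G10270, THI2.1 and BHLH101, were lost without either KCl array.

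The KCl pair and the nitrate pair of arrays share no array and gave 2 separate views of the number. Across the probe sets their Rep2 minus Rep1 differences correlated with a Pearson r of 0.496 and a Spearman rho of 0.452, and 65.9% had the same sign. This is a description across probe sets, which are not independent. Of the 1661 called probe sets, 1644 had both Rep2 arrays above or both below both Rep1 arrays, as had 53.7% of all probe sets.

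**Figure D1:**
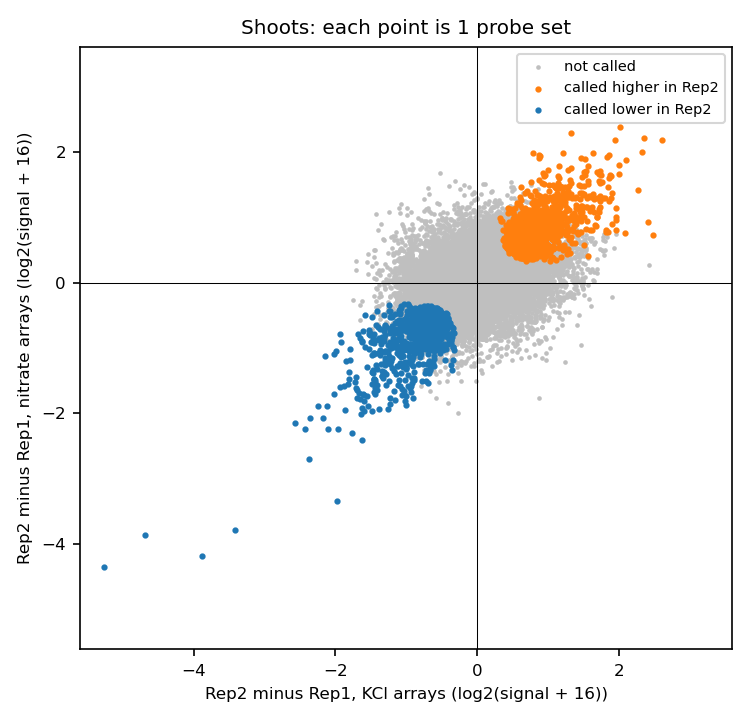
Rep2 minus Rep1 on the log2(signal + 16) scale in the KCl pair of shoot arrays (horizontal) and in the nitrate pair (vertical), 1 point per probe set, with called probe sets coloured by direction. The 910 probe sets called higher in Rep2 and the 751 called lower lie along the diagonal, and the 4 points farthest down on the left are ICL, AT4G39675, AT3G29970 and AT1G47400. The fit measures each probe set's own spread from the gap between its KCl and nitrate pairs. A call therefore favours places near the diagonal.

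Isocitrate lyase, the first enzyme particular to the glyoxylate cycle, led the genes lower in Rep2. For its gene ICL, the mean signal was 2810 ± 338 in Rep1 and 87.3 ± 34.0 in Rep2 (SD, n = 2), a log2 difference of -4.81 (SE 0.20, adjusted p = 5.40e-05). The drop was -5.27 in the KCl pair and -4.34 in the nitrate pair. In the roots the ICL signals were 462 (KCl) and 237 (nitrate) in Rep1 against 59.9 and 83.8 in Rep2, a log2 difference of -2.0 that did not pass (adjusted p = 0.153). The numbers thus did not overlap for ICL in either organ, which in shoots was a condition of its choice among the largest falls. Of 24 genes of the glyoxylate cycle and fatty acid beta-oxidation that were listed, 4 could be named on the array, and ICL was the 1 that fell. AIM1, a multifunctional beta-oxidation enzyme, was at 482 and 500 in Rep1 and at 553 and 525 in Rep2, a log2 difference of 0.13 (adjusted p = 0.567). The triacylglycerol lipase SDP1 differed by 0.08 (adjusted p = 0.815) and its relative SDP1-LIKE by 0.33 (adjusted p = 0.445). Over the 4 genes the median log2 difference was 0.11, against 0.05 over all probe sets.

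Loci that carry no symbol in the gene records fell far too. AT4G39675 gave signals of 441 (KCl) and 419 (nitrate) in Rep1 and of 1.72 and 13.9 in Rep2, a log2 difference of -4.27 (SE 0.22, adjusted p = 0.000151). AT3G29970 gave 797 and 859 in Rep1 and 39.1 and 32.5 in Rep2, a difference of -4.03 (SE 0.13, adjusted p = 1.22e-05). Both loci were also lower in Rep2 in the roots, by the same log2 difference of -1.75, which passed for AT3G29970 (adjusted p = 0.0261) and not for AT4G39675 (adjusted p = 0.0924). AT5G05250 gave 104 and 244 in Rep1 and 14.4 and 9.86 in Rep2 (log2 difference -2.65, SE 0.32, adjusted p = 0.00386), and its root difference was -0.27. For all 3 loci the Rep1 shoot arrays lay far above the Rep2 shoot arrays under both salts, as their choice by largest fall without overlap required.

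The iron shortage genes AT1G47400 and BHLH101 were lower in Rep2. AT1G47400, entered in the copper and iron list as IMA1, one of the IRON MAN peptides that signal iron shortage, gave signals of 315 (KCl) and 433 (nitrate) in Rep1 against 15.1 and 16.6 in Rep2. Its log2 difference was -3.60 (SE 0.17, adjusted p = 9.58e-05). BHLH101, a transcription factor induced by iron shortage, gave 39.6 and 53.4 against 2.45 and 3.71, a difference of -1.70 (SE 0.27, adjusted p = 0.0113). Neither gene overlapped between the numbers, as was so for 1644 of the 1661 called probe sets. Of the 4 named genes among 29 in the copper and iron list, these 2 fell, where 3.3% of all probe sets fell. The list was chosen with earlier results of these data known, so the share is only a description. PYE, a regulator of iron homeostasis, was at 117 and 122 in Rep1 and at 87.3 and 68.2 in Rep2, which did not pass (log2 difference -0.54, adjusted p = 0.0890). CCS, which loads copper onto superoxide dismutase, differed by 0.00 (adjusted p = 0.999). In the roots AT1G47400 differed by -0.16 and BHLH101 by 0.34, and neither passed.

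In the low-oxygen list 4 genes were lower in Rep2. Of 27 listed genes 9 were named. Of these, 4 fell, 0 rose and 5 did not pass, where 3.3% of all probe sets fell. This list too was chosen with earlier results of these data known. The median log2 difference over the 9 was -0.45, with 6 below 0 and 3 above. AT4G10270, entered in the list as WIP4, gave 520 (KCl) and 608 (nitrate) in Rep1 and 154 and 165 in Rep2, a log2 difference of -1.72 (SE 0.11, adjusted p = 0.000314). AT1G19530 fell from 130 and 193 to 52.5 and 54.0 (difference -1.34, adjusted p = 0.00559). CML38, a calmodulin-like protein of the hypoxia response, fell from 147 and 149 to 65.1 and 51.7 (difference -1.15, adjusted p = 0.00711), and AT1G33055 by 0.81 on the log2 scale (adjusted p = 0.0130). None of the 4 overlapped between the numbers, as was so for 1644 of the 1661 called probe sets. The fermentation gene PDC2, which encodes pyruvate decarboxylase, was at 818 and 620 in Rep1 and 689 and 664 in Rep2, overlapping between the numbers (difference -0.07, adjusted p = 0.810). The locus AT4G17260, entered as LDH for lactate dehydrogenase, differed by 0.06 (adjusted p = 0.820). AT3G27220 and AT3G10020 had the positive differences 0.43 and 0.31, and neither passed. Unadjusted, 7 of the 9 genes had a p under 0.05 in the limma fit, and AT3G27220 and AT3G10020 were both among them. In the roots 6 of the 9 genes were also below 0, with a median of -0.43.

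Single genes of other stress and defence responses were among those lower in Rep2. STZ, also known as ZAT10, a zinc finger repressor induced by touch, wounding and salt, gave 382 (KCl) and 394 (nitrate) in Rep1 and 111 and 85.6 in Rep2 (log2 difference -1.83, SE 0.13, adjusted p = 0.000483). It was the 1 gene of 17 in the touch list that could be named. The thionin gene THI2.1, a jasmonate-responsive antimicrobial peptide, fell from 78.1 and 70.1 to 11 and 17.44 (difference -1.58, SE 0.27, adjusted p = 0.0135). The other 3 named genes of the jasmonate list, PDF1.2, PDF1.2b and JMT, had differences of -0.28, -0.25 and -0.16 that did not pass. LCR67, a defensin of the low-molecular-weight cysteine-rich family, was at 37.0 and 73.9 in Rep1 and at 1.14 and 0.998 in Rep2 (difference -2.02, SE 0.30, adjusted p = 0.00879). OSM34, an osmotin-like pathogenesis-related protein, was at 124 and 168 against 22.3 and 32.1 (difference -1.91, SE 0.19, adjusted p = 0.00184). Each of these 4 called genes had both Rep1 arrays above both Rep2 arrays, which the rule for naming STZ, LCR67 and OSM34 required. Of the 1661 called probe sets, 1644 had no overlap. GRX480, the only named gene of the salicylic acid list, differed by -0.36 (adjusted p = 0.470).

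Genes of nitrogen, glucosinolate and flavonoid metabolism gave a few further calls, all lower in Rep2. NRT2.5, a nitrate transporter of nitrogen-starved plants, gave 102 (KCl) and 174 (nitrate) in Rep1 and 32.6 and 48.6 in Rep2 (log2 difference -1.42, SE 0.18, adjusted p = 0.00513). BCAT4, which starts the chain elongation of methionine for glucosinolates, fell from 1062 and 1013 to 398 and 547 (difference -1.13, SE 0.15, adjusted p = 0.00617), and the other 4 named genes of that list of 30 did not pass. DFR, dihydroflavonol reductase of the anthocyanin branch, fell from 526 and 417 to 266 and 210 (difference -0.94, SE 0.11, adjusted p = 0.00368). The anthocyanin glycosyltransferase UF3GT gave 232 and 103 in Rep1 and 137 and 61.9 in Rep2, so its numbers overlapped. Its difference of -0.66 (-0.70 in the KCl pair, -0.62 in the nitrate pair) passed with the treatment as a term (adjusted p = 0.0277), and the treatment term itself was -1.01. The other 4 of 6 named flavonoid genes, from -0.41 for UGT78D2 to 0.27 for AT4G14090, did not pass.

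The remaining 7 of the 15 largest falls among named genes were those of the plastid gene psbA and of AT4G15390, AT5G37990, AT2G22880, AT2G17850, AT3G22240 and AT3G56360, loci without a symbol whose differences lay between -2.22 and -2.03. Over the 15 genes the difference was at least 1.83 in size on the log2 scale and the highest adjusted p was 0.00879. In the roots 14 of the 15 were also below 0, from -2.0 for ICL upward, and LCR67 was at 0.02. Of the 751 probe sets called lower in shoots, 539 were below 0 in the roots.

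**Figure D2:**
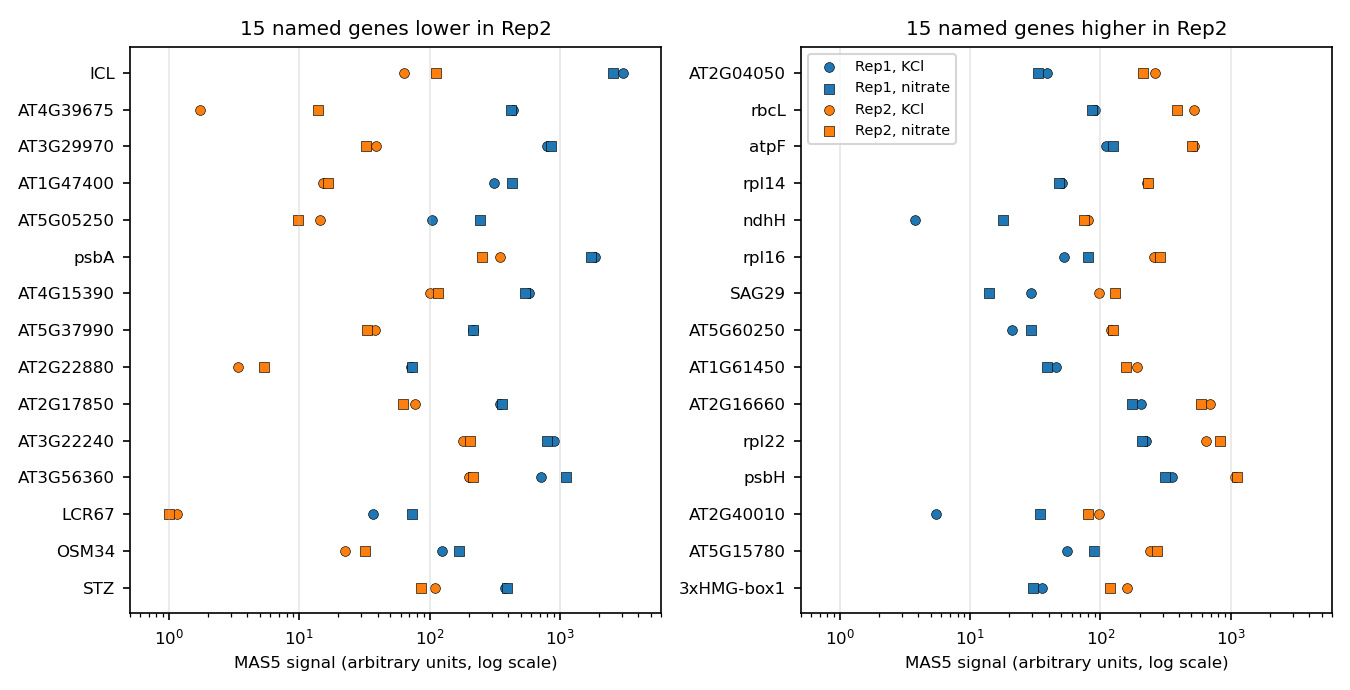
MAS5 signal on each shoot array (log axis) for the 15 named genes with the largest called fall in Rep2 (left) and the 15 with the largest called rise (right); circles are KCl, squares nitrate, blue Rep1, orange Rep2. The rule for choosing the 30 genes required the 2 blue points on one side and the 2 orange points on the other. They run from 3049 and 2572 against 63.2 and 111 for ICL to 35.9 and 30.3 against 161 and 118 for 3xHMG-box1.

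Chloroplast-encoded genes gave 29 calls higher in Rep2 and 1 call lower, that of psbA. All 69 plastid genes with a probe set were assessed, and the other 39 did not pass; of all probe sets 4% rose and 3.3% fell. The median log2 difference over the 69 was 0.45, in the KCl pair 0.66 and in the nitrate pair 0.41, against 0.05 over all probe sets in the fit. Of the 69, 59 had a positive difference and 10 a negative one. The numbers did not overlap for 48 (69.6%), against 53.7% of all probe sets. The 29 that rose ranged from 0.69 for matK to 2.17 for rbcL, with a median of 1.17.

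The large subunit of Rubisco, rbcL, had signals of 91.2 (KCl) and 85.4 (nitrate) in Rep1 and 523 and 390 in Rep2 (log2 difference 2.17, SE 0.13, adjusted p = 0.000234). The ATP synthase subunit atpF had 110 and 125 against 527 and 501 (difference 1.99, SE 0.12, adjusted p = 0.000234), and of the 6 plastid genes of that enzyme atpH was the other that rose. The other 4, atpA, atpB, atpE and atpI, lay between -0.21 and 0.35 and did not pass. Both Rep2 arrays were thus high for rbcL and atpF, while atpB and atpE, for other subunits of the same complex, at 3298 and 2864 and at 2445 and 1998 in Rep1, were not higher in Rep2.

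The plastid ribosome was the best represented family. Of its 7 large-subunit genes 4 rose, namely rpl14, rpl16, rpl22 and rpl36, and all 7 were positive, with a median of 1.15. For rpl14 the signals were 50.3 and 48.1 in Rep1 and 226 and 231 in Rep2 (log2 difference 1.91, SE 0.14, adjusted p = 0.000532). For rpl16 they were 52.6 and 79.8 against 259 and 285 (1.83, SE 0.14, adjusted p = 0.000617), and for rpl22 they were 224 and 210 against 648 and 824 (1.68, SE 0.13, adjusted p = 0.000653). Of the 8 small-subunit genes, rps2, rps3, rps15 and rps19 rose, by 1.05 to 1.63, and rps14 at -0.25 was the only negative one. Of the 4 subunits of the plastid RNA polymerase, rpoC1 (1.09) and rpoC2 (1.17) rose, while rpoA (-0.21) and rpoB (0.03) did not pass.

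Photosystem and electron transport genes were mixed. Photosystem I had 3 of 5 genes higher, psaA (1.25), psaC (1.27) and psaI (0.79), and no negative one. Photosystem II had psbH (1.67), psbK (1.07) and psbL (0.78) higher among 15 genes, and psbA lower. psbA encodes D1, the reaction centre protein that is replaced continually in the light. Its signals were 1878 (KCl) and 1726 (nitrate) in Rep1 and 351 and 254 in Rep2 (log2 difference -2.53, SE 0.14, adjusted p = 0.000209). Of the cytochrome b6f genes petG (1.49) and petL (1.03) rose among 6. Of the 10 NDH complex genes ndhA (1.06), ndhE (1.06) and ndhH (1.85) rose, and ndhF at -0.89 did not pass (adjusted p = 0.096). Among the single genes, accD of fatty acid synthesis (1.15), the protease gene clpP (1.12), cemA (1.08), ycf4 (1.2) and matK (0.69) rose, and ccsA (0.33) did not pass.

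In the roots 66 of the 69 plastid genes had a positive difference, with a median log2 difference of 0.60, and all 29 that rose in shoots were positive there, with a median of 0.89. Only psbH passed in the roots, with 43.4 and 46.3 in Rep1 against 242 and 178 in Rep2 (log2 difference 1.88, adjusted p = 0.0229). psbA was between 10.9 and 37.8 on the 4 root arrays and differed there by -0.06. In shoots as in roots, a higher number of plastids, more plastid RNA per plastid and a difference in RNA quality or labelling cannot be told apart in whole-organ RNA. None of these was tested.

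Nuclear genes for photosynthesis gave no call. All 11 that could be named of 55 had a negative difference, from -0.24 for PRK to -0.71 for PSAE-1, with a median of -0.46, but 0 passed in the limma fit, with 4 at an unadjusted p under 0.05, and 0 passed with quantile normalization. SBPASE, an enzyme of the Calvin cycle, was at 1160 (KCl) and 1255 (nitrate) in Rep1 and at 752 and 867 in Rep2 (log2 difference -0.57, adjusted p = 0.0504). LHCB4.3, an antenna protein of photosystem II, was at 386 and 251 against 167 and 206 (difference -0.70, adjusted p = 0.0609). Both lay close to the threshold, and each passed under 4 of 14 alternatives, a pseudocount of 1 and the filter on low signals among them. The signals of the 11 genes ran from 167 to 4194, and quantile normalization moved their median to -0.12. The photorespiration gene HPR, hydroxypyruvate reductase, was at 1625 and 1428 in Rep1 and 863 and 1088 in Rep2 (difference -0.64, adjusted p = 0.0686). In chlorophyll synthesis CHLM (0.10) and PORB (-0.01) overlapped between the numbers.

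**Figure D3:**
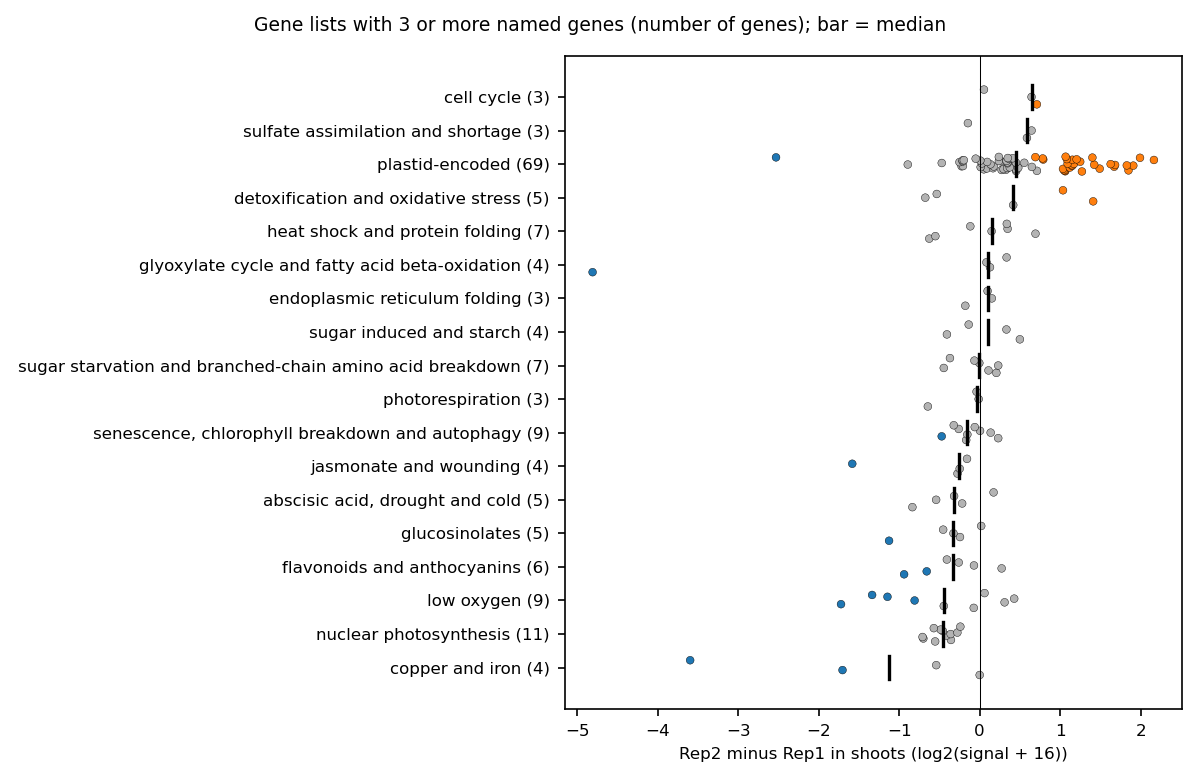
Rep2 minus Rep1 in shoots on the log2(signal + 16) scale for every named gene of the lists with at least 3 named genes; each point is 1 gene, orange if called higher, blue if called lower, grey if not called, and the bar is the list's median. Plastid-encoded genes spread from psbA at -2.53 to rbcL at 2.17 around a median of 0.45, the 11 nuclear photosynthesis genes sit between -0.71 and -0.24, and 4 of 9 low-oxygen genes are blue.

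The other large rises in Rep2 were scattered over functions. AT2G04050, a locus without a symbol, was the largest among the named genes: 39.0 (KCl) and 33.4 (nitrate) in Rep1 and 265 and 212 in Rep2 (log2 difference 2.28, SE 0.15, adjusted p = 0.000322). SAG29, a sugar transporter of the SWEET family known from ageing leaves, rose from 29.1 and 14 to 96.7 and 130 (difference 1.8, SE 0.27, adjusted p = 0.00939). 3xHMG-box1, a protein that binds mitotic chromosomes, rose from 35.9 and 30.3 to 161 and 118 (difference 1.65, SE 0.19, adjusted p = 0.00320). All 3 had both Rep2 arrays above both Rep1 arrays, as the rule for naming them required. AT2G40010 also passed (difference 1.67, SE 0.35, adjusted p = 0.0290), with a Rep1 pair that spread from 5.42 to 34.5. AT5G60250 (1.76), AT1G61450 (1.7), AT2G16660 (1.69) and AT5G15780 (1.65) complete the nuclear genes among the 15 largest rises, of which 7 were plastid-encoded. Of the 15, 13 were positive in the roots, as were 761 of the 910 probe sets called higher in shoots.

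Among listed genes, 2 of 5 named genes for detoxification and oxidative stress rose, where 4% of all probe sets rose. The glutathione transferase GSTU25 was at 22.1 and 2.06 in Rep1 and at 54.7 and 52.7 in Rep2 (log2 difference 1.41, SE 0.33, adjusted p = 0.0389). AT2G21640, a marker of oxidative stress, was at 78.3 and 56.9 against 194 and 121 (difference 1.04, SE 0.15, adjusted p = 0.00857). Both Rep2 arrays were above both Rep1 arrays for these 2 genes, and 1644 of the 1661 called probe sets had no overlap either. GSTU22 (0.42), UGT73B4 (-0.68) and UGT73B5 (-0.53) did not pass. Over the 11 probe sets with a GSTU symbol the median log2 difference was -0.35, and GSTU25 was the only one called. In the cell cycle list the mitotic kinase AUR1 rose, from 103 and 89.8 to 178 and 157 (difference 0.71, SE 0.13, adjusted p = 0.0195). Its relative AUR2, at 24.0 and 42.5 against 56.5 and 62.9, did not pass (difference 0.64, adjusted p = 0.157), and PRL differed by 0.05.

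Several programmes gave no call. The 7 named genes of sugar starvation and branched-chain amino acid breakdown lay between -0.45 and 0.23 with a median of 0.00, and the closest to the threshold was IVD at -0.45 (adjusted p = 0.132). The 4 genes for starch and sugar response included APL3, a starch synthesis subunit, at 106 and 106 in Rep1 and 154 and 159 in Rep2 (difference 0.50, adjusted p = 0.0607). The 7 heat shock genes spread from -0.63 to 0.69. The 5 genes of abscisic acid, drought and cold had a median of -0.32, with COR47 at 957 and 1005 against 765 and 584 (difference -0.54, adjusted p = 0.0723). In limma's test 0 of these passed; unadjusted, 1, 2, 2 and 2 genes of these lists, in this order, had a p under 0.05. In the lists for protein folding in the endoplasmic reticulum, sulfate and photorespiration 0 of 3 passed, with 0, 2 and 1 at an unadjusted p under 0.05. Of the 9 autophagy and senescence genes, all of them ATG8 genes, ATG8C alone fell, from 255 and 295 to 189 and 198 (difference -0.47, adjusted p = 0.0471). In the lists for the clock, cuticle, cell wall, light response and seed maturation, which had 1 or 2 named genes each, nothing passed, and EXPA8 of the cell wall list came closest (difference -0.45, adjusted p = 0.0553). Phosphate starvation had no named gene.

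The difference between the numbers was tested between shoots and roots in a fit of all 8 arrays. It differed for 54 probe sets (0.237%), 8 of them (0.0352%) more positive and 46 (0.202%) more negative in shoots. Of the 54, 49 were also among those called in shoots. The 23 with 1 gene were all more negative in shoots. AT1G47400 led them, with root signals of 39.1 (KCl) and 28.5 (nitrate) in Rep1 and 35.2 and 22.6 in Rep2, and a shoot minus root difference of -3.44 (SE 0.24, adjusted p = 0.0262). AT4G39675 (-2.53, adjusted p = 0.0381), psbA (-2.47, adjusted p = 0.0358), AT3G29970 (-2.28, adjusted p = 0.0358) and AT4G15390 (-2.21, adjusted p = 0.0262) followed. For ICL the same difference was -2.81 and did not pass (SE 0.45, adjusted p = 0.0733). No plastid gene besides psbA passed this test.

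**Figure D4:**
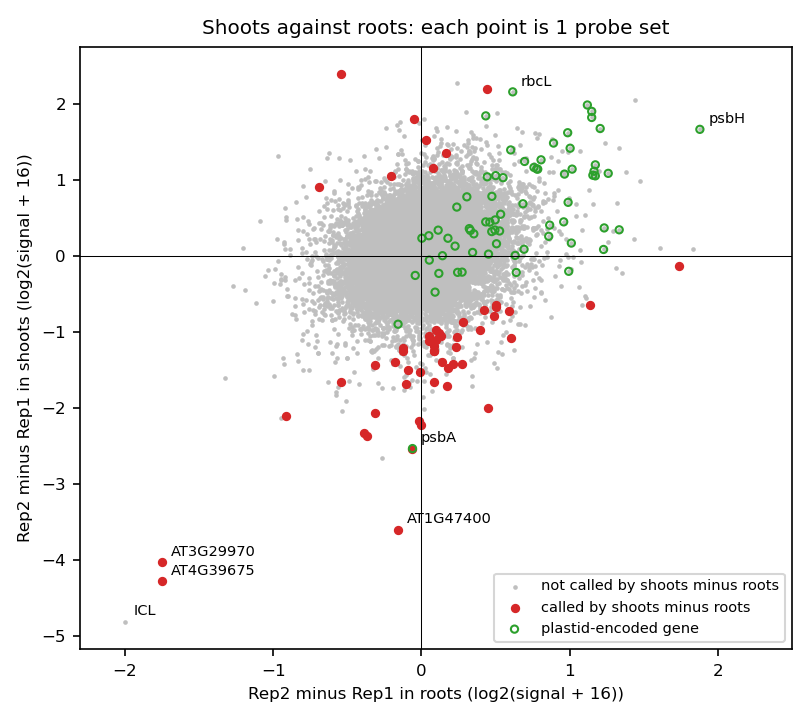
Rep2 minus Rep1 in roots (horizontal) and in shoots (vertical) on the log2(signal + 16) scale, 1 point per probe set; red points passed the test of the difference between the organs and green rings are plastid genes. Most red points lie below 0 in shoots and near 0 in roots, such as AT1G47400 at -3.60 and -0.16, while most plastid genes lie above 0 in both.

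Of the 15 named genes with the largest falls in Rep2 shoots, AT4G15390, AT5G37990 and AT3G22240, singled out after their values were seen, had higher signals in roots. AT4G15390 was between 2541 and 2557 on the 4 root arrays, and in shoots gave 582 (KCl) and 540 (nitrate) in Rep1 against 100.03 and 116 in Rep2. AT5G37990 was between 1342 and 1695 in roots, and in shoots gave 218 and 214 against 38.3 and 33.1. AT3G22240 was between 2000 and 2717 in roots, and in shoots gave 909 and 798 against 179 and 204. For all 3 the Rep2 shoot arrays lay farther from the root level. Of the 23 genes of the organ test, 18 had a higher mean signal in roots than in shoots, and for 11 the root level was at least 4-fold higher. Over the 535 probe sets at least 4-fold higher in roots than in shoots, a class drawn after these values were seen, 66 (12.3%) were called lower in Rep2 shoots and 8 (1.5%) higher, with a median log2 difference of -0.28 against 0.05 over all. Of all probe sets 3.3% were lower and 4% higher. The shoot level here is the mean of all 4 shoot arrays, Rep2 among them. A fall in Rep2 shoots thus itself helps a probe set into the class. The share of lower calls, and the 18 and 11 above, are therefore partly fixed by how they were drawn. The 869 probe sets at least 4-fold higher in shoots had 99 (11.4%) lower and 77 (8.86%) higher, with a median of -0.06. Of the 10 root markers 5 were named and limma called 0 of them, 2 having an unadjusted p under 0.05. Their summed shoot signal was 3307 and 3114 in Rep1 and 2325 and 2284 in Rep2, most of it from PYK10. Their differences ran from -0.99 to 0.71, with 4 markers lower in Rep2 and 1 higher, the one at 0.71. The peroxidase genes AT3G01190 and AT4G26010, at 996 to 1134 and 1173 to 1427 on the root arrays, were at 20.5 and 28.0 and at 45.5 and 59.1 in the Rep1 shoots, against 4.53 and 3.96 and 23.0 and 17.44 in Rep2 (adjusted p = 0.0537 and 0.0890). The root hair gene EXPA7 differed by -0.02. The part of root RNA in the result was not tested. Taking the 535 out of the count of calls, with no new fit, left 1587. That number follows by subtraction and tests nothing.

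Gene length also moved with the difference. For the 13436 probe sets with a length in the gene records, which include introns, the median was 3027 bp over the 440 called higher in Rep2, 1597 bp over the 383 called lower and 2117 bp over all. In the shortest of 5 equal groups by length 44 were higher and 114 lower; in the longest group 186 were higher and 17 lower. The median log2 difference rose from -0.02 in the shortest group to 0.20 in the longest, in the KCl pair to 0.17 and in the nitrate pair to 0.23. Across these probe sets length and difference had a Spearman rho of 0.231, against 0.148 for Rep2 minus Rep1 in roots and -0.03 for nitrate minus KCl in shoots. The 29 plastid genes that rose were short by their gene records, with a median length of 555 bp, and made up 19 of the 44 higher calls in the shortest group. A record gives the length of the gene, which need not be that of its RNA. The array's actin control had a 3′ to 5′ signal ratio of 10.2 (KCl) and 9.01 (nitrate) in Rep1 and of 4.72 and 4.89 in Rep2. For GAPDH the ratio was 0.997 and 1.14 against 1.03 and 0.943, overlapping between the numbers, and for ubiquitin 2.15 and 2.34 against 2.02 and 1.97. The array's second set of controls gave a smaller gap for actin, 1.88 and 1.29 in Rep1 against 1.09 and 1.19 in Rep2, and for GAPDH it gave 0.939 and 0.952 against 0.988 and 0.963. For ubiquitin that set had the higher ratios in Rep2, at 1.31 and 1.28 against 1.37 and 1.47. The part of RNA length or quality in the result was not tested.

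**Figure D5:**
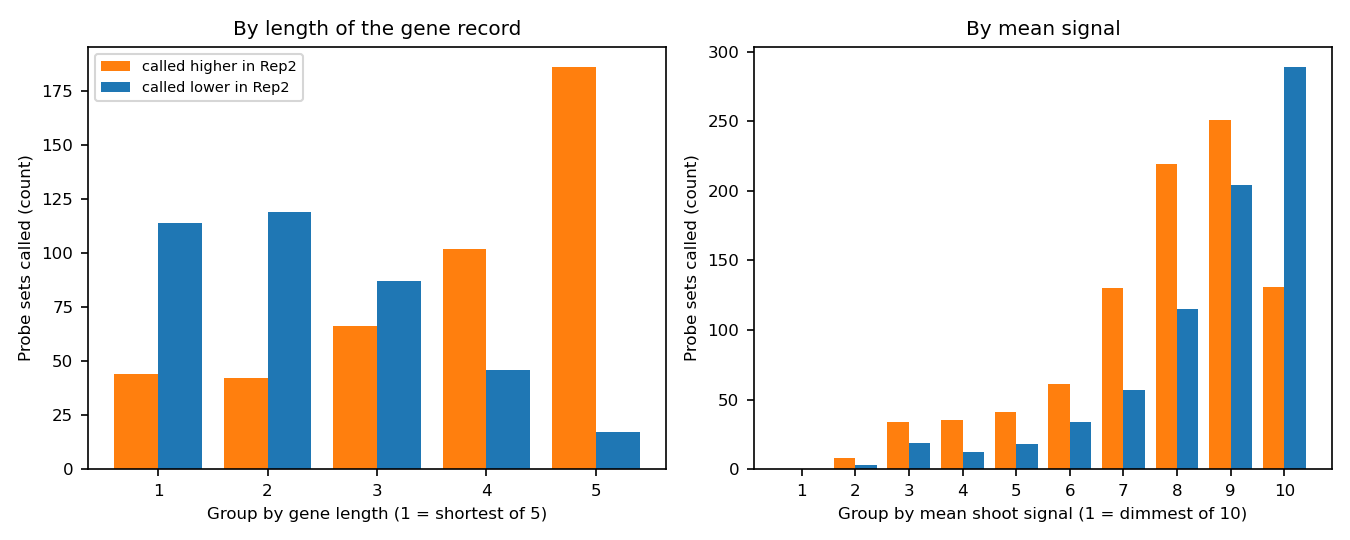
Number of probe sets called higher (orange) and lower (blue) in Rep2 shoots, by gene length in 5 equal groups (left, probe sets with a length in the gene records) and by mean signal in 10 equal groups on the 4 shoot arrays (right, all probe sets tested). Higher calls outnumber lower calls by 186 to 17 among the longest genes, and lower calls outnumber higher calls by 289 to 131 among the brightest probe sets.

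Brightness moved with the direction too. The brightest of 10 equal groups of probe sets had a median log2 difference of -0.14, with 131 higher and 289 lower, and the group at place 5 from the dimmest had a median of 0.15. After quantile normalization the medians of the groups lay between -0.04 and 0.02 and the brightest group had 255 higher and 240 lower. In all 3.89% of probe sets were then higher and 3.63% lower, 7.52% together. The highest single signals were 7465 (KCl) and 5045 (nitrate) in Rep1 and 3661 and 3580 in Rep2. With this scaling 37 plastid genes rose and psbA fell, and the low-oxygen list had 4 lower, so the direction of these calls did not turn.

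Some probe sets were called both for the treatment and for the number. Of the 42 called for nitrate minus KCl in shoots, 12 (28.6%) were also called between the numbers, against 7.3% of all probe sets; they were 0.722% of the 1661. Both terms come from 1 fit and share its estimate of each probe set's spread. Of the 12, 11 were lower in Rep2. Only 4 of the 12 have a name, given here after their values were seen: UF3GT, AT3G19030, AT1G32920 and PGM. AT3G19030 went from 62.4 with KCl to 697 with nitrate in Rep1 and from 35.3 to 280 in Rep2. PGM, the locus AT1G78050, went from 24.8 to 441 and from 3.47 to 244. Both were higher with nitrate under either number, and both were lower in Rep2 than in Rep1 under the same salt. Over the 41 probe sets that rose with nitrate, the median rise was 2.31 on the log2 scale in Rep1 and 1.54 in Rep2, and it was larger in Rep1 for 33 of them. With 1 array per salt and number, that difference has no test.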

How the data were processed

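RNA of 8 samples, 2 arrays in each of 4 groups, was hybridised to ATH1 arrays. The deposited signal intensity of each probe set is on a linear scale and was made with MAS5 and GCOS, per the submitters' processing notes; their versions and the scaling target are not stated there. With 2% trimmed at each end, the mean intensity was 100.01 on every array. After 64 control probe sets were left out, log2(intensity + 16) was fitted with limma 3.58.1 in R 4.3.3 (lmFit, eBayes with trend). The 4 shoot arrays had number and treatment as terms (1 residual and 7.37 prior degrees of freedom); the organ test had number and treatment within organ on 8 arrays (2 residual and 4.92 prior). Tests were two-sided, with Benjamini-Hochberg adjustment over 22746 probe sets and a threshold of 0.05. The fit was checked on simulated data. The number of arrays limits the precision.

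Names came from the platform's probe table, updated to TAIR10.1 gene records: 13513 probe sets have 1 gene (13436 matched a record), 503 several and 8730 none listed, so unnamed probe sets are not without a gene. Of 640 different genes in 27 lists, 103 could be named, in 26 lists; 17 had at least 3. The plastid list holds every named gene of the plastid genome; rule-made lists of mitochondrion-encoded and cytosolic ribosomal genes matched no probe set. A list has 1 probe set per gene, the one with the highest mean signal. The members and lists were chosen with earlier results of these data known. Named genes are the 15 largest called differences in each direction without overlap, up to 4 called members of a list or 2 by smallest p, the 5 largest of the organ test, and ICL and psbH; other genes of a list and the genes of the root level and nitrate paragraphs were named after their values were seen. Just inside the threshold lay AT3G24080 (adjusted p = 0.0499) and just outside AT5G20050 (adjusted p = 0.0502). The alternatives were other pseudocounts, quantile normalization, a filter, other eBayes settings, other terms and leaving out each array. Promoter motifs were not analysed here.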

Additional observations from a re-analysis of the deposited data

Results flagged for a closer look

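The difference between Rep2 and Rep1 was not the same in shoots and roots for 54 probe sets, by limma's test of the difference itself. The 5 named genes with the largest such differences were all more negative in shoots than in roots, on the log2(signal + 16) scale: AT1G47400 by -3.44, AT4G39675 by -2.53, psbA by -2.47, AT3G29970 by -2.28 and AT4G15390 by -2.21. In roots AT1G47400, psbA and AT4G15390 differed by -0.16, -0.06 and 0.00 between the numbers, and AT4G39675 and AT3G29970 by -1.75 each. Leaving out any 1 array gave between 0 and 3 calls, and at most 2 of the 54 were among them.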

How the results depend on the processing

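The number of probe sets called between Rep2 and Rep1 in shoots was 1661. It was 2515 with a pseudocount of 1, 3792 among the 13647 probe sets above the 40th percentile, 496 when only probe sets of 1 gene were tested, 492 with a 2-fold minimum, 696 without the treatment term, and 0 with eBayes without a trend, where the lowest adjusted p was 0.079. Leaving out 1 shoot array gave 184 to 1177 in a fit of the other arrays; it was 215 without the KCl array of Rep1 and 184 without that of Rep2, and those fits gave 85 higher and 130 lower, and 60 higher and 124 lower. In the fits without 1 shoot array the difference was that of the intact pair, and the measured spread was that of the root arrays. A pseudocount of 64 (1175), quantile normalization (1711), robust eBayes (1471) and all 8 arrays in the fit (2489) are the others tried. For shoots minus roots the count of 54 became 130 with a pseudocount of 1, 5 with a pseudocount of 64, 35 with quantile normalization, 485 with the filter, 21 with robust eBayes, 5 among probe sets of 1 gene, 0 without the trend (3198 at an unadjusted p under 0.05) and 0 to 3 without 1 array, at most 2 of them among the 54. Taking the probe sets higher in roots out of the count, after seeing the data and with no new fit, left 33. The nitrate count of 42 became 78 and 21 with pseudocounts of 1 and 64, 206 with the filter, 5 among probe sets of 1 gene, 0 without the trend (1200 at an unadjusted p under 0.05) and 9 to 29 without 1 array. The number serves as the replicate block of the nitrate comparison: with no replicate block 1 probe set was called. Of 69 named probe sets, 44 were called and 0 of these reversed; all 44 missed the threshold without the trend, 16 of them only then and 16 under 4 or more alternatives. Of the 25 uncalled, 11 passed under at least 1 alternative. Uncalled values that reversed were AT1G80380 at 0.0035 and PORB at 0.26 with quantile normalization, and, over the fits without 1 array, CHLM (-0.19 to 0.38), PORB (-0.12 to 0.10) and HYH (-0.96 to 0.038). The cause was not tested. After seeing the data, calls were also counted, with no new fit, without the longest of 5 equal length groups (1458, 724 higher and 734 lower) and without plastid genes (1631). These counts follow by subtraction and test nothing. Dim probe sets limit what can be seen: no probe set in the dimmest of 10 equal groups by signal was called.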

Other observations

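Gene families, some of whose members are also in the lists, were counted by the stem of their symbols, after the first results were known. Members with another symbol are left out, such as SAG29 of the SWEET family and the glycosyltransferase UF3GT, both called above. Of 47 named UGT glycosyltransferase probe sets 3 fell in Rep2 (UGT72E1, UGT72E2 and UGT71C5) and 0 rose. Of 9 XTH genes, which remodel cell wall xyloglucan, XTH16 and XTH32 rose, with a median log2 difference of 0.30 over the 9. BGLU16 and BGLU33 rose among 20 beta-glucosidase genes, and SEC6 and SEC15B, which encode exocyst subunits, among 8 SEC genes. SWEET1 rose among 14 SWEET sugar transporter genes, which had a median of 0.33. ALDH10A8 and ALDH6B2 fell among 8 aldehyde dehydrogenase genes. Across all probe sets 4% rose and 3.3% fell.

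Unnamed probe sets were called more often than those with 1 gene, at 9.02% against 6.13%.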
